A study of Polistes metricus with 16 samples.

Results

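The 103 transcript identifiers described here had a larger share of the counts in the brain of every foundress than in the brain of any worker of the paper wasp Polistes metricus. They were chosen from a table of 127674 identifiers in 3 steps. An identifier needed 10 or more counts in each of the 16 libraries, which 43848 identifiers had, and its lowest foundress value had to lie above its highest worker value. Values are in CPM, the count of an identifier per 1000000 counts of its library. The identifiers that met the rule were ranked by the mean CPM of the 8 foundresses over the mean CPM of the 8 workers, and rank 1 has the highest ratio. The rule allowed up to 150, and 103 met it, which is 0.235% of the 43848 with enough counts.

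In Polistes wasps, females of 1 species share a genome and can become queens or workers. A foundress is a female that has overwintered, starts a nest in spring, lays eggs and can rank above other females on it. Workers emerge later in the season, forage and tend the brood, and mostly do not lay. Brain gene expression in social wasps and bees is known to differ with caste, age, season, nutrition and behaviour.

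All 16 wasps were adult females, each gave 1 brain library, and each of the 4 groups had 4 wasps. The first group was foundresses trained to faces of the related paper wasp P. fuscatus, collected in June (M30, M67, M79 and M91). The second was foundresses trained to simple patterns, collected in May (M1, M15, M4 and M5). The third was workers kept for at least a week on a nest of P. fuscatus that was not their own, here called allospecific (MW30, MW32, MW41 and MW47, all July). The last was workers kept as long on another nest of their own species, here called conspecific (MW21, collected in June, and MW25, MW40 and MW42, in July). Both worker groups were then trained to P. fuscatus faces. Every wasp went through 40 trials in a T-maze with negative reinforcement and was killed 30 minutes after the last, and no untrained wasp is among the 16. Wasps were collected in Ann Arbor, and the labels give no genotype and no age in days. Caste therefore went together with the month of collection, with being moved to another nest and, for foundresses trained to patterns, with the stimulus, and these cannot be told apart. In whole brains, fewer cells of a type and less RNA per cell cannot be told apart either.

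The deposited table does not pair identifiers with gene names, and no annotation or sequence was used here. The top pair are given by identifier and the others by rank, and no gene, pathway or cell type is named. Levels are not compared between identifiers, because their lengths are not known. Libraries held 17289375 to 22832434 counts in foundresses and 14949149 to 20528177 in workers. Identifiers with any count at all numbered 89775 to 99735 in foundresses and 82298 to 88836 in workers, without overlap. The part of that difference in the values below was not tested.

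The ratio of foundress to worker means among the 103 identifiers ran from 1.20 to 3.18, with a median of 1.58 and quartiles of 1.42 and 1.82. It was over 1.5 in 63 identifiers, over 2 in 16, over 2.5 in 6 and over 3 in 1. Over all 43848 identifiers with enough counts the median ratio was 0.955. Because these same values chose the 103, all caste differences over the 16 wasps are a description and carry no test. A large ratio alone did not make an identifier meet the rule: 100 of the 43848 had a ratio over 2, and 16 of those had no overlap between the castes. The opposite rule, with every worker above every foundress, was met by 168 identifiers (0.383%), with a median ratio of workers to foundresses of 1.51 and a highest of 4.69. Ratios over 2 were held by 16 of the 103 foundress-higher identifiers (15.5%) and by 46 of the 168 worker-higher ones (27.4%).

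**Figure D1:**
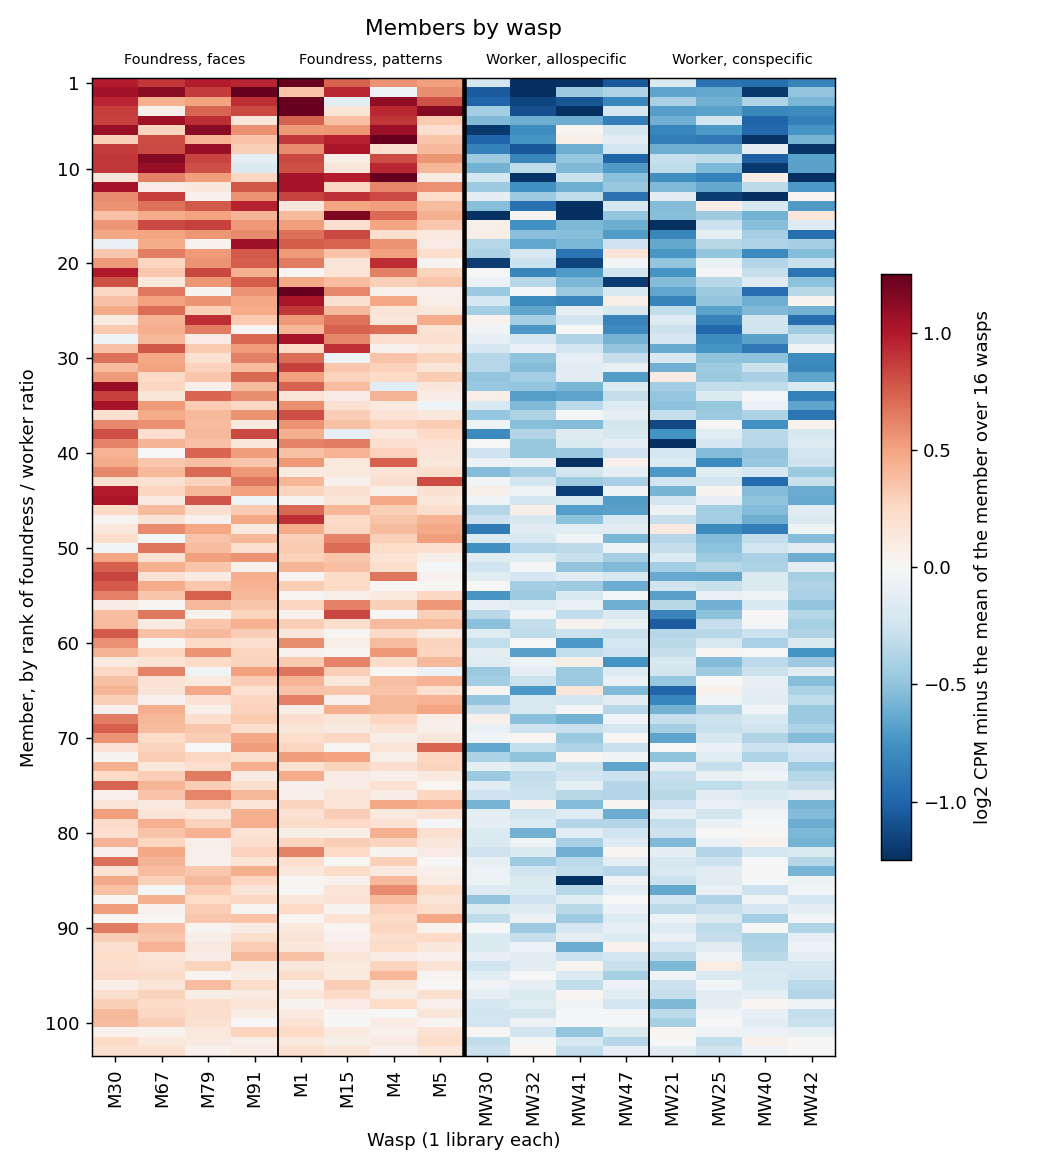
Each row is 1 of the 103 identifiers in rank order and each column is 1 wasp; colour shows log2 CPM minus the mean of that identifier over 16 wasps, and values beyond the ends of the scale take the end colour. Rows at the top have ratios up to 3.18 and rows at the bottom ratios down to 1.20, and shading differs between wasps within each caste.

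PmetTSAr2.0-054578, ranked 1, had 4.08, 3.80, 4.07 and 3.99 CPM in M30, M67, M79 and M91, the foundresses trained to faces. In the foundresses trained to patterns it had 4.92 CPM in M1, 3.44 in M15, 3.04 in M4 and 2.93 in M5. Among workers it had 1.75, 0.822, 0.803 and 0.990 CPM in MW30, MW32, MW41 and MW47 and 1.82, 1.09, 1.07 and 1.15 CPM in MW21, MW25, MW40 and MW42. All foundresses lay above all workers, and MW30 and MW21 were the high workers. The means were 3.78 ± 0.643 CPM in foundresses and 1.19 ± 0.391 CPM in workers (SD, n = 8 each), a ratio of 3.18. Its gap, by which the lowest foundress exceeded the highest worker, was the widest of the 103 at 60.9%. Counts behind these values were 54 to 93 in foundresses and 13 to 36 in workers.

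PmetTSAr2.0-060340, ranked 2, had 3.53, 3.70, 3.11 and 4.16 CPM in foundresses trained to faces and 2.17, 3.26, 1.63 and 2.54 CPM in foundresses trained to patterns. Workers had 0.828, 0.705, 1.24 and 1.30 CPM after allospecific nests and 1.07, 1.09, 0.736 and 1.21 CPM after conspecific nests. M4 was the lowest foundress and MW47 the highest worker, 25.2% apart. The means were 3.01 ± 0.844 CPM in foundresses and 1.02 ± 0.234 CPM in workers (SD, n = 8 each), a ratio of 2.95.

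The identifiers ranked 3 and 4 had similar counts and ratios. Rank 3 averaged 2.74 ± 0.819 CPM in foundresses and 0.947 ± 0.197 CPM in workers, a ratio of 2.89. Its lowest foundress was M15 with 1.42 CPM and its highest worker MW40 with 1.20 CPM. Rank 4 averaged 2.85 ± 0.764 CPM in foundresses and 1.00 ± 0.233 CPM in workers, a ratio of 2.85 (SD, n = 8 each). In both, M1 was the highest foundress, at 4.07 CPM for rank 3 and 3.86 CPM for rank 4. With as few as 12 counts in a worker library for rank 3 and 11 for rank 4, single-wasp values at these ranks are imprecise.

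The identifier ranked 5 had more counts, 167 to 392 in foundresses and 65 to 130 in workers. It had 15.8, 18.1, 16.6 and 9.66 CPM in foundresses trained to faces and 14.5, 11.3, 16.2 and 10.9 CPM in those trained to patterns. Workers had 5.94, 5.70, 5.68 and 4.79 CPM after allospecific nests and 5.74, 7.44, 4.35 and 4.82 CPM after conspecific nests. M91 was the lowest foundress and MW25 the highest worker, with a gap of 29.9%. The ratio of its means was 2.54.

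For rank 6, the values were 37.5, 21.6, 38.6 and 26.3 CPM in foundresses trained to faces and 25.6, 26.0, 37.2 and 20.5 CPM in those trained to patterns. Workers had 7.70, 10.3, 18.2 and 15.3 CPM after allospecific nests and 10.1, 10.8, 8.96 and 10.6 CPM after conspecific nests. MW41 and MW47 were the high workers, and M5 and M67 the low foundresses. The means were 29.2 ± 7.45 CPM in foundresses and 11.5 ± 3.48 CPM in workers (SD, n = 8 each).

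Ranks 7 to 10 had ratios of 2.49, 2.49, 2.44 and 2.40. Rank 8 rests on few counts, 25 to 54 in foundresses and 10 to 20 in workers. Rank 9 ran from 8.79 to 21.0 CPM in foundresses and from 4.68 to 7.78 CPM in workers, and rank 10 from 7.87 to 19 CPM in foundresses and from 3.88 to 7.19 CPM in workers. M91 was the lowest foundress for both, and both had overlapping castes once libraries were scaled by TMM instead of by their totals.

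**Figure D2:**
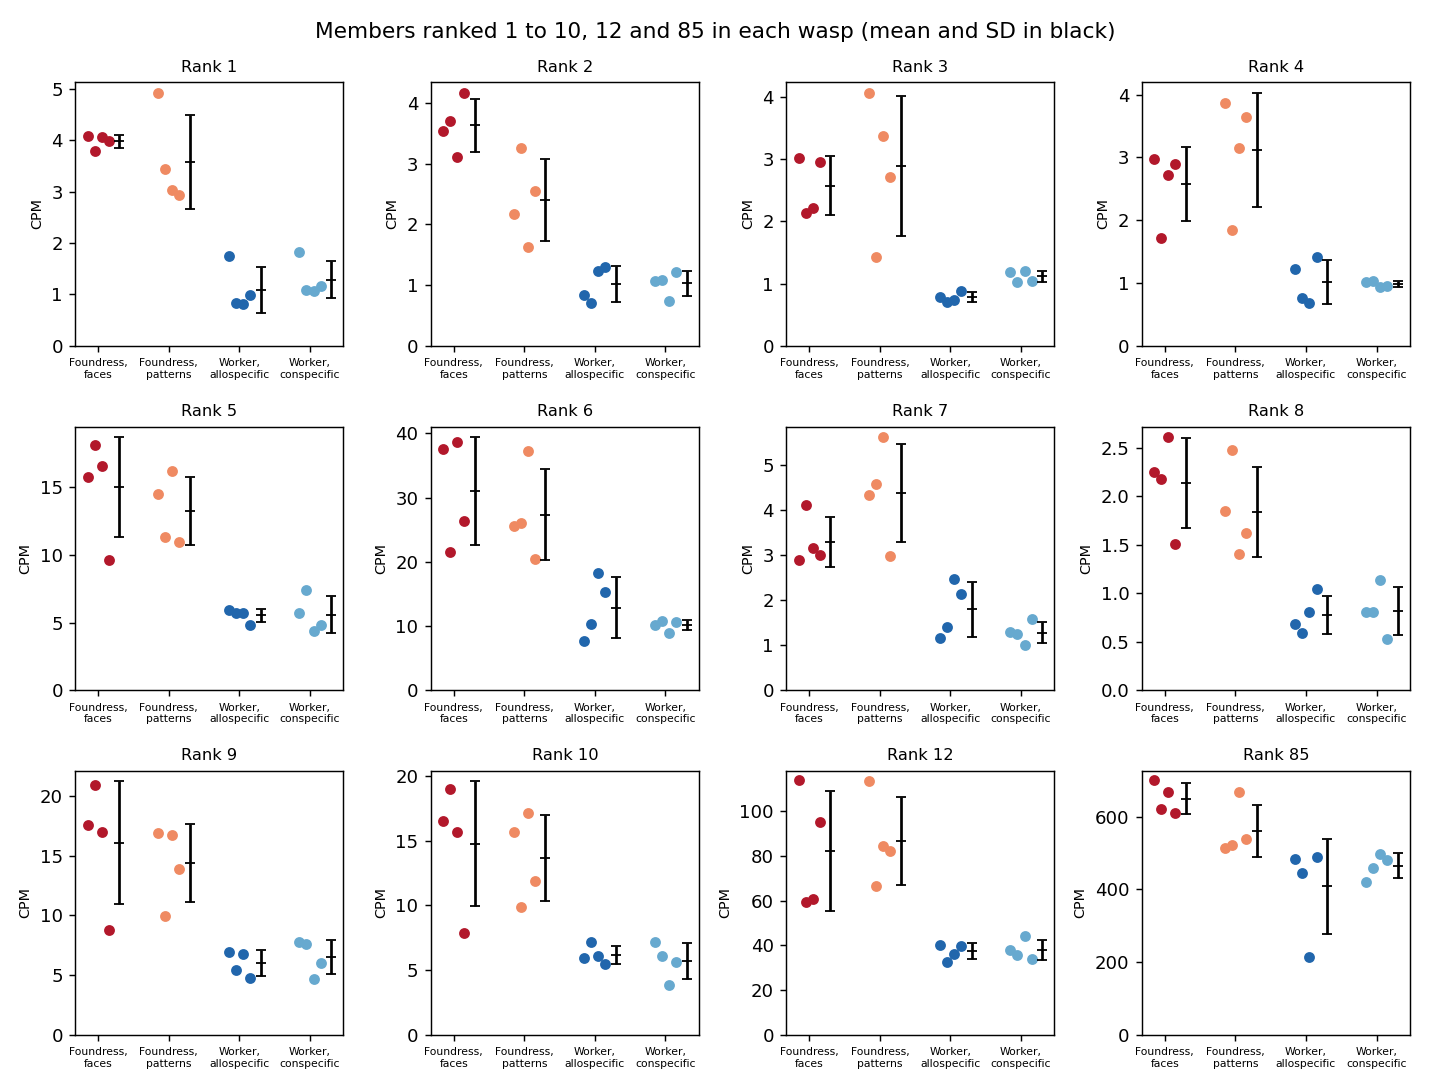
CPM of the identifiers ranked 1 to 10, 12 and 85 in each of the 16 wasps, with 1 dot per wasp, the 4 groups along the horizontal axis and the mean with its SD in black. In each panel the lowest foundress lies above the highest worker, by 60.9% at rank 1 and 2.86% at rank 85, where MW41 lies far below the other workers.

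Most of the 103 identifiers met the rule narrowly. The gap between the lowest foundress and the highest worker had a median of 3.96% and quartiles of 1.55% and 11%. It was under 5% in 60 identifiers, over 10% in 30 and over 20% in 6. Counting error alone is wider than that in most of them: exact 95% Poisson intervals of the lowest foundress and the highest worker, which cover counting error only, overlapped in 96 identifiers and were apart in 7. Those 7 were ranks 12, 59, 69, 73, 75, 78 and 91, and they were singled out after their values were seen. Rank 12 had the highest ratio of them. With TMM factors the castes overlapped at ranks 78 and 91, where the lowest foundress lay 3.17% and 9.41% below the highest worker.

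Rank 12 had 114, 59.4, 60.7 and 95 CPM in foundresses trained to faces and 114, 66.3, 84.5 and 82.2 CPM in those trained to patterns. Its workers lay close together, at 40.3, 32.7, 36.3 and 39.8 CPM after allospecific nests and 37.9, 35.6, 44.1 and 33.7 CPM after conspecific nests. The means were 84.5 ± 21.9 CPM in foundresses and 37.6 ± 3.76 CPM in workers (SD, n = 8 each), a ratio of 2.25. It had 1210 to 2483 counts per library in foundresses and 557 to 827 in workers, and a gap of 34.7%.

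At the edge of the rule, the narrowest gap was 0.0175% at rank 79, with 43.6 CPM in M5 as the lowest foundress and 43.6 CPM in MW40 as the highest worker. Ranks 44 and 82 were next, with gaps of 0.0476% and 0.0627%. Just outside, the nearest 3 identifiers had a lowest foundress 0.213%, 0.215% and 0.265% below the highest worker, with ratios of 1.58, 1.41 and 1.19. In all, 92 identifiers lay within 5% outside, these 3 included. Rank 103, the last, averaged 34.6 ± 1.44 CPM in foundresses and 28.9 ± 2.51 CPM in workers (SD, n = 8 each), a ratio of 1.20 with a gap of 2.04%.

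The minimum of 10 counts in each library left out 51 identifiers whose castes did not overlap either. Of these, 3 had no count in any worker and 36 had at most 9 counts in the highest worker. Among the 103, the lowest library count ran from 10 to 3674 with a median of 97. Every library had at least 20 counts in 86 identifiers, at least 50 in 67 and at least 100 in 50.

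The scaling of the libraries decides for some identifiers whether the castes overlap. With TMM factors (a scaling that trims extreme identifiers), which ran from 0.853 in MW21 to 1.08 in MW41, the castes overlapped in 23 of the 103, and MW21 was the highest worker in 21 of those 23. Ranks 9, 10, 91 and 103 are among the 23, and the deepest overlap, at rank 71, put the lowest foundress 18.1% below the highest worker. With DESeq2 size factors 21 overlapped. The castes stayed apart under the totals, TMM and DESeq2 size factors in 80 identifiers. The TMM factors moved the median log2 ratio of all 43848 identifiers by 0.04 and the DESeq2 size factors by 0.06, and with them the median ratio of the 103 became 1.62 and 1.64. Every one of the 103 kept a ratio above 1, the lowest being 1.23 with TMM factors.

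Together the 103 identifiers held 0.479%, 0.429%, 0.430% and 0.418% of all counts in M30, M67, M79 and M91, trained to faces. The share was 0.395%, 0.377%, 0.422% and 0.385% in M1, M15, M4 and M5, trained to patterns. Workers had 0.302%, 0.274%, 0.262% and 0.291% after allospecific nests and 0.281%, 0.292%, 0.302% and 0.272% after conspecific nests. The mean share was 0.417% ± 0.0323 in foundresses and 0.284% ± 0.0145 in workers (SD, n = 8 each). M30 was the highest of all wasps and MW41 the lowest. The sum is led by few identifiers, and ranks 85, 91, 61, 75 and 80 held 41.9% of it.

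Rank 85, with 14.8% of the counts of the 103, had 701, 621, 668 and 610 CPM in foundresses trained to faces and 513, 522, 668 and 538 CPM in those trained to patterns. Workers had 483, 446, 215 and 488 CPM after allospecific nests and 419, 459, 499 and 482 CPM after conspecific nests. MW41, with 3473 counts of it, lay far below every other worker. The means were 605 ± 72.9 CPM in foundresses and 436 ± 93.3 CPM in workers (SD, n = 8 each), a ratio of 1.39, and without MW41 the ratio was 1.29. Rank 91, with the next highest number of counts, averaged 374 ± 26.5 CPM in foundresses and 282 ± 21.4 CPM in workers, a ratio of 1.32.

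Identifiers of the list were found at all levels of counts. When the 43848 were cut into 4 bins of like size by total count, the bins held 26, 18, 18 and 41 of the 103, from the fewest to the most counts. Their median ratios, in the same order, were 1.79, 1.65, 1.55 and 1.47, so the higher median ratios lay in the bins with fewer counts. Counting error is wider there, and a larger ratio is needed to keep the castes apart, so this order is partly set by the rule. Wasp-to-wasp spread was a little smaller than over all 43848, with a median coefficient of variation of 15.8% in foundresses (18.5% over all) and 15.3% in workers (18.4% over all). Identifiers with a wide spread in either caste are less likely to meet the rule.

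Single wasps set the margins unevenly. M5 was the lowest foundress for 23 identifiers, and the count for each other foundress was 8 to 15. The highest worker was MW40 for 18 identifiers, MW41 for 17, MW47 for 16 and MW30 for 15, and the other workers each had 7 to 11. M30 had the highest value of all 16 wasps for 27 identifiers and M1 for 18.

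To see how each wasp behaved when it did not take part in the choice, the rule was applied to the other 15 wasps in turn. Leaving out a foundress gave lists of 107 (without M91) to 147 identifiers (without M5). A foundress meets the rule on its left-out list only for the identifiers that also meet it on all 16, so its share above every worker is set by the length of the list: 70.1% for M5 to 96.3% for M91, with a median of 83.5%. Leaving out a worker gave 116 to 151 identifiers, and the share below every foundress, 68% (MW47) to 90.5% (MW42), was set by the length of the list in the same way, since 102 to 105 identifiers lay there for each worker.

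On a scale from 0 at the mean of the workers to 1 at the mean of the foundresses in the list, the left-out wasp's median position was 0.998, 1.01, 0.952 and 1.02 for M30, M67, M79 and M91. It was 0.885, 0.710, 0.839 and 0.658 for M1, M15, M4 and M5, so with library totals each foundress trained to patterns sat lower than each foundress trained to faces. The workers' positions ran from 0.0432 in MW41 to 0.342 in MW47 after allospecific nests, and from -0.0451 in MW42 to 0.140 in MW40 after conspecific nests. MW47 and MW30, at 0.264, lay nearest to the foundresses. No wasp crossed to the side of the other caste by its median.

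**Figure D3:**
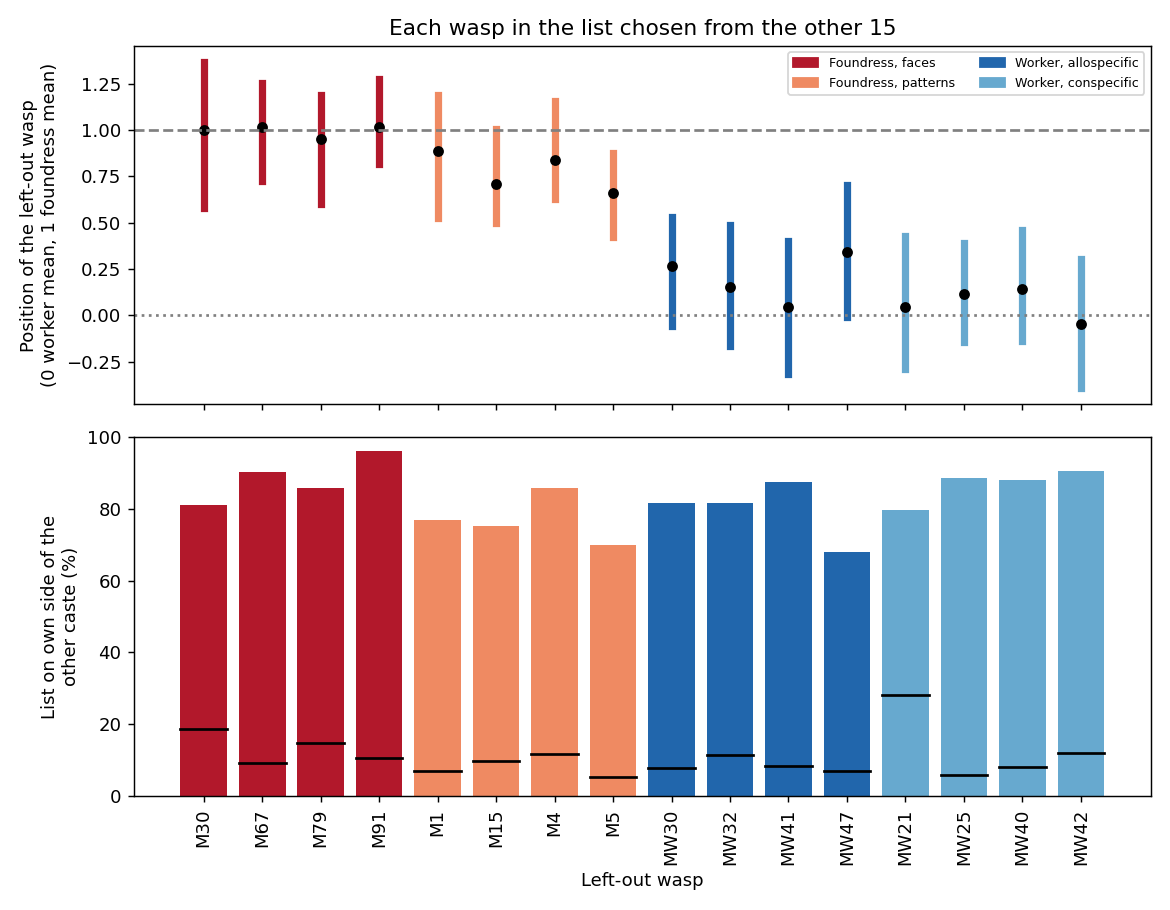
For each left-out wasp, the upper panel shows its median position (dot) and quartiles (bar) over the list chosen from the other 15, where 0 is the worker mean and 1 the foundress mean; the lower panel shows the percentage of that list on the wasp's own side of the whole other caste, with a black line for all identifiers with enough counts, where the bars are set by the length of each list. M5 has the lowest foundress position at 0.658 and MW47 the highest worker position at 0.342.

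A stricter reading used lists chosen in 1 foundress group and 1 worker group and read in the other 8 wasps, which had no part in the choice. In the first, the rule was applied to foundresses trained to patterns and workers from conspecific nests. It was met by 880 of 45136 identifiers with enough counts in those 8 wasps, and the 150 with the highest ratios, 1.76 to 5.66, were taken. In foundresses trained to faces against workers from allospecific nests, 139 of these 150 (92.7%) had a higher mean in foundresses, against 52.0% of all 52527 identifiers tested. The median log2 difference was 0.70, a fold of 1.62, against 0.01 for all tested. The median ratio in the wasps that chose the list had been 2.05, so the difference was smaller in the wasps that did not.

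By edgeR's quasi-likelihood test with Benjamini-Hochberg adjustment, 5 of the 150 passed an adjusted p of 0.05, all higher in foundresses, beside 45 of all 52527 tested (0.0857%). An unadjusted p under 0.05 with foundresses higher was found for 69 of the 150 (46%), against 6.10% of all tested. Every foundress trained to faces lay above every worker from an allospecific nest in 41 of the 150 (27.3%), against 2.17% of all tested. The 5 that passed were ranks 1, 2, 3, 5 and 9 of the 103. Their p-values belong to them as items of the list chosen in the other 8 wasps, and the ranks, which rest on all 16, only name them. Rank 5 had a log2 difference of 1.51 ± 0.19 (SE, adjusted p = 0.0188) and rank 2 one of 1.91 ± 0.25 (adjusted p = 0.0188). Ranks 1 and 3 had log2 differences of 1.92 ± 0.27 and 1.79 ± 0.25 (both adjusted p = 0.0247) and rank 9 one of 1.5 ± 0.24 (adjusted p = 0.0445). Without MW32 or without MW41 none of the list passed, where 5 of 53889 and 3 of 53950 tested passed higher in foundresses. Without MW47 1 did, beside 7 of 53901, and without M30 2 did, beside 22 of 53255. The DESeq2 test called 25 of the list, beside 323 of all 52527 called higher in foundresses. With no filter on low counts, edgeR called 35 of the list, beside 773 of 120404.

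The second list was chosen on foundresses trained to faces and workers from allospecific nests. It took the 150 highest ratios, 1.79 to 10.3, of 964 identifiers that met the rule. In foundresses trained to patterns against workers from conspecific nests, 137 of the 150 (91.3%) were higher in foundresses, against 49.7% of all 51908 tested. The median log2 difference was again 0.70, against -0.00 for all tested. An adjusted p under 0.05 was reached by 7 of the 150, all higher in foundresses, beside 24 of all tested (0.0462%), and 44 of the 150 (29.3%) had no overlap, against 2.15% of all tested. An unadjusted p under 0.05 with foundresses higher was reached by 77 of the 150 (51.3%), against 5.37% of all tested.

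These 7 were ranks 4, 5, 6, 7, 12, 19 and 22 of the 103. Rank 6 had the lowest adjusted p, 0.00473, with a log2 difference of 1.48 ± 0.16 (SE). Rank 19 followed with 1.10 ± 0.13 (adjusted p = 0.00737) and rank 7 with 1.80 ± 0.24 (adjusted p = 0.0102). Ranks 22, 12, 5 and 4 had log2 differences of 0.82 ± 0.11, 1.26 ± 0.18, 1.29 ± 0.19 and 1.72 ± 0.28, with adjusted p of 0.0112, 0.0160, 0.0169 and 0.0369. Without MW25 3 of the list passed, beside 9 of 53055 tested that passed higher in foundresses. Without MW40 4 did, beside 7 of 52922, and without MW21 13 did, beside 47 of 53263. The DESeq2 test called 44 of the list, beside 315 of all 51908 called higher in foundresses. With no filter, edgeR called 49 of the list, beside 822 of 122953.

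Rank 5 was the identifier that passed in both readings. Identifiers at most 3 numbers apart may share reads or a gene. Ranks 5 and 9, which both passed in the first reading, are such neighbours. So are rank 3, which passed in the first, and ranks 4 and 12, which passed in the second. Neighbours were not merged in either list, so the counts of identifiers are not counts of genes. The lists shared 25 identifiers, 16.7% of each. The first held 33 of the 103 (32.0% of the 103, 22% of the list) and the second 31 (30.1% of the 103, 20.7% of the list). An identifier whose castes are apart in both sets of 8 wasps is likely to meet the rule on all 16, so that all those that passed belong to the 103 was to a large degree set by the choice. Among the listed identifiers outside the 103, 106 of 117 in the first reading and 106 of 119 in the second were higher in foundresses, with median log2 differences of 0.61 and 0.63.

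**Figure D4:**
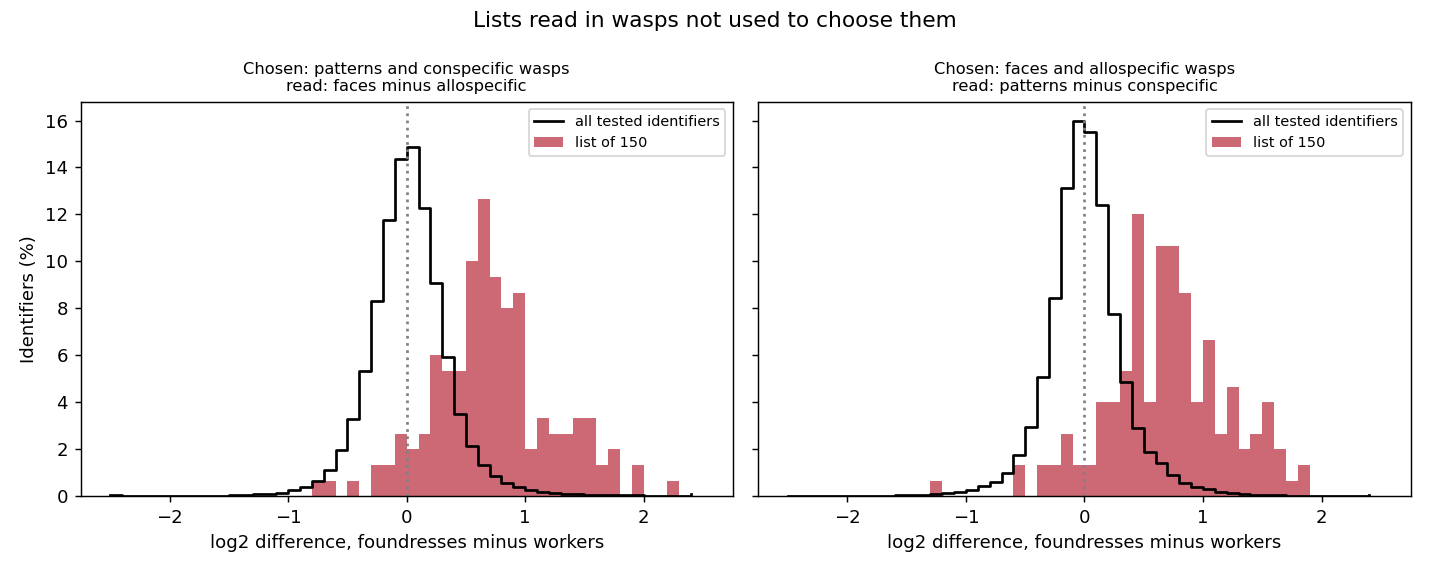
Distribution of the log2 difference, foundresses minus workers, for a list of 150 identifiers (red bars) and for all identifiers tested (black line), as a percentage of each, in wasps that had no part in choosing the list; values beyond the axis are counted in the end bins. Both lists have their median at 0.70, against 0.01 and -0.00 for all identifiers tested.

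Each foundress group lay above each worker group to a like extent. The median ratio over the 103 identifiers was 1.58 for faces over allospecific, 1.69 for faces over conspecific, 1.49 for patterns over allospecific and 1.56 for patterns over conspecific, and the lowest single ratio was 1.12. These ratios share groups and were used by the rule, so they are values only. In June, the only month with both castes, there were 4 foundresses and 1 worker. The June foundresses over MW21 had a median ratio of 1.67 with a range of 1.07 to 4.65, and MW21 had a median of 0.965 of the mean of the other workers. The rule had placed every foundress above MW21, so a June ratio above 1 was fixed in advance for each of the 103. With 1 worker, no test within June was run, and nothing about month is read from these values.

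The rule did not compare wasps of the same caste, but it favoured identifiers with a small spread within each caste. Differences between stimuli and between nests were tested for each identifier, while the counts and median sizes of the 103 beside those of all tested are tilted by the choice, and nothing is read from them. Among foundresses trained to faces against patterns, none of the 103 passed an adjusted p of 0.05 in edgeR's test on all 16 wasps, and none of all 55226 tested did (0%). At an unadjusted p under 0.05 there were 7 of the 103 (6.80%), 6 higher after faces and 1 lower, against 10.3% of all tested. DESeq2 called 139 identifiers over the whole table and edgeR without a filter on low counts called 33, none of them among the 103. Limma voom called none. The month of collection goes fully with the stimulus in foundresses, so these cannot be told apart.

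The log2 differences of the 103 between faces and patterns ran from -0.58 to 0.53, with 51 above 0 and 52 below and a median of -0.00, against 0.00 over all tested. Their median size was 0.12, against 0.19 over all tested. These values depend on the scaling: with column totals, 67 of the 103 had a higher mean after faces and the median became 0.06. Every foundress trained to faces lay above every one trained to patterns in 9 of the 103 by column totals (8.74%, against 4.65% of all with enough counts), but in 4 with TMM factors (2.80% of all) and in 5 with DESeq2 size factors (2.95% of all). The reverse was seen in none of the 103 by column totals, against 2.01% of all with enough counts. It was seen at rank 15 alone with TMM factors (0.971%, against 3.76% of all) and with DESeq2 size factors (0.971%, against 3.72% of all).

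Rank 42 had the lowest p of the 103 in favour of faces. It had 41.4, 36.0, 44.4 and 39.7 CPM in foundresses trained to faces and 29.3, 29.5, 30.7 and 31.7 CPM in those trained to patterns. The groups did not overlap, and the log2 difference was 0.35 ± 0.11 (SE, edgeR's unadjusted p = 0.00385, adjusted p = 0.338). Its workers lay lower, at 21.9 ± 2.88 CPM after allospecific nests and 21.0 ± 3.64 CPM after conspecific nests (SD, n = 4 each). Rank 55, noticed after its values were seen, had 69.0 ± 8.89 CPM after faces and 51.5 ± 3.56 CPM after patterns (SD, n = 4 each). Its identifier lies 7 places from that of rank 42. Their levels correlated at 0.964 within groups over the 16 wasps, so they may share reads or a gene.

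Rank 11 had the lowest p in favour of patterns. It had 1.83, 2.55, 2.36 and 1.97 CPM in foundresses trained to faces and 3.38, 3.26, 4.22 and 1.75 CPM in those trained to patterns. M5 lay with the faces group, and the log2 difference was -0.58 ± 0.27 (SE, edgeR's unadjusted p = 0.0465, adjusted p = 0.483). Workers had 0.682 to 1.74 CPM, and with 12 to 75 counts per library this identifier is among the thinly covered ones.

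Among workers from allospecific against conspecific nests, none of the 103 and none of all 55226 tested passed an adjusted p of 0.05 in edgeR. At an unadjusted p under 0.05 there was 1 of the 103 (0.971%), against 2.29% of all tested. DESeq2 called 1 identifier over the whole table, not among the 103, and limma voom called none. The log2 differences of the 103 ran from -0.59 to 0.39, with 40 above 0 and 63 below, a median of -0.03 and a median size of 0.09, against 0.13 over all tested. With column totals the median became 0.04, and 62 of the 103 had a higher mean after allospecific nests. Without overlap, none lay above by column totals (against 0.773% of all with enough counts), and ranks 3 and 71 lay below (2 of the 103, against 0.442% of all). With TMM factors rank 3 alone lay below (0.971%, against 0.905% of all), and with DESeq2 size factors rank 3 lay below (0.842% of all) and rank 53 above (0.702% of all).

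Rank 14 was the one under 0.05. It had 3.02, 2.29, 1.61 and 3.75 CPM in workers from allospecific nests and 3.0, 4.63, 3.81 and 2.67 CPM in those from conspecific nests. These overlap, and the log2 difference was -0.45 ± 0.22 (SE, edgeR's unadjusted p = 0.0493, adjusted p = 1.00). Without MW41 the log2 difference was -0.26, and with DESeq2 size factors, with column totals or in the DESeq2 test none of the 103 had an unadjusted p under 0.05. Both foundress groups lay higher, at 7.36 ± 0.861 CPM after faces and 5.75 ± 0.669 CPM after patterns (SD, n = 4 each). Rank 70, with the lowest p in the other direction, had 3.70, 3.88, 2.78 and 3.85 CPM after allospecific nests and 2.41, 3.32, 2.94 and 2.62 CPM after conspecific nests. MW41 lay below MW25 and MW40, and the log2 difference was 0.27 ± 0.16 (SE, edgeR's unadjusted p = 0.115, adjusted p = 1.00).

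**Figure D5:**
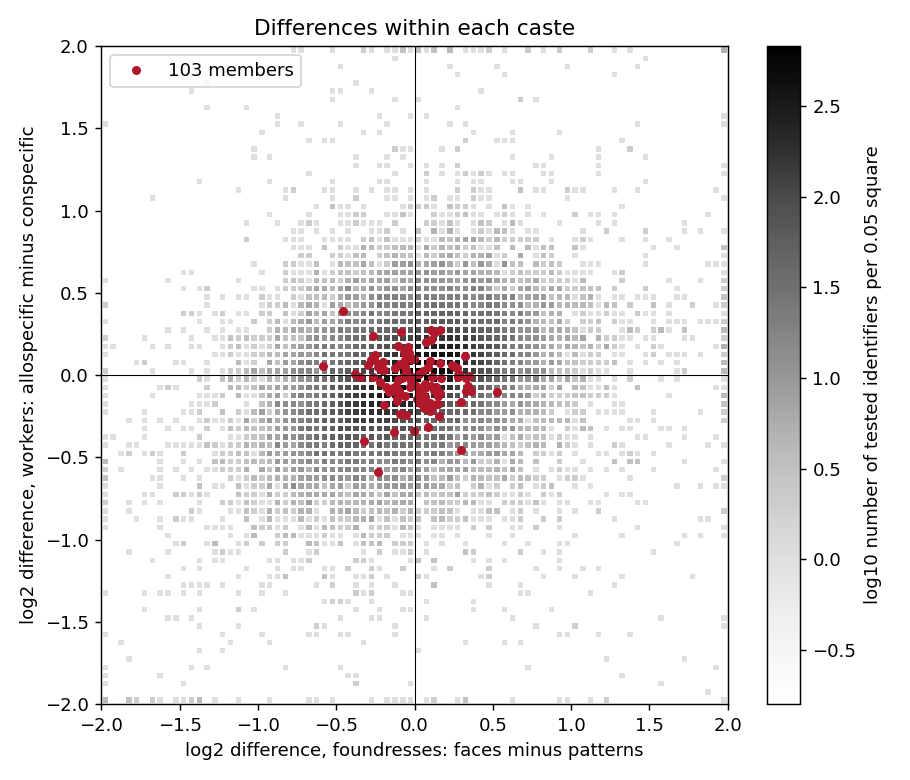
Each red dot is 1 of the 103 identifiers, with its log2 difference of faces minus patterns in foundresses on the horizontal axis and of allospecific minus conspecific in workers on the vertical axis; grey squares show the number of all tested identifiers, with values beyond the axes placed at the edge. The red dots lie between -0.58 and 0.53 across and between -0.59 and 0.39 up, and no identifier passed the adjusted test in either direction.

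The 103 identifiers may stand for fewer than 103 genes. Taking identifiers at most 3 numbers apart as a run, the 103 formed 87 runs, of which 13 held several (29 identifiers) and 74 held 1. Whether such neighbours are pieces of 1 gene, variants of it or different genes is not known from the table. Correlations between identifiers were taken on log2 of CPM plus 1, which shrinks differences at low CPM. In 10 of the 13 runs every pair of identifiers correlated above 0.6 within groups over the 16 wasps. These are descriptions, since the wasps share libraries and neighbours may share reads.

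Ranks 5, 9 and 10 form 1 run, with within-group correlations of 0.876 to 0.912. Their summed level was 43.6 ± 10.9 CPM in foundresses and 17.7 ± 2.80 CPM in workers (SD, n = 8 each), a ratio of 2.46 with a gap of 24.7%. Ranks 3, 4 and 12 form another, with correlations of 0.675 to 0.779. They summed to 90.0 ± 23.1 CPM in foundresses and 39.5 ± 3.95 CPM in workers (SD, n = 8 each), a ratio of 2.28 with a gap of 36.8%. Most of that sum was rank 12, so it says little about ranks 3 and 4. In these 2 runs lie 5 of the identifiers ranked 1 to 10.

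Other runs, picked after their values were seen, had lower ratios. Ranks 59 and 69 correlated at 0.922 and summed to 272 ± 46.1 CPM in foundresses and 182 ± 10.6 CPM in workers (SD, n = 8 each), a ratio of 1.5. Ranks 73 and 78 summed to 225 ± 20.8 CPM in foundresses and 156 ± 20.4 CPM in workers, a ratio of 1.44. Ranks 21 and 29 are neighbours that did not vary together, with a correlation of -0.57. Rank 21 averaged 69.0 ± 16.6 CPM in foundresses and 36.3 ± 9.24 CPM in workers, and rank 29 averaged 1.69 ± 0.371 CPM in foundresses and 0.951 ± 0.203 CPM in workers (SD, n = 8 each).

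The neighbours of the 103 that did not meet the rule tended the same way. Of 294 such identifiers at most 3 numbers away, 176 (59.9%) had a ratio above 1, against 37.7% of all 43848. A ratio at or above that of rank 103 was held by 84 of them (28.6%), against 8.25% of all. Their median ratio was 1.05 and their highest 1.94. These ratios come from the same wasps and castes that chose the 103, and neighbours may share reads or a gene. They are therefore a description and not separate evidence.

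Over all 5253 pairs of the 103, the median within-group correlation was 0.0323, so most pairs did not vary together from wasp to wasp. It was above 0.5 in 360 pairs (6.85%) and below -0.5 in 213 (4.05%). The shares for pairs of other identifiers are not given here. Of the 79 pairs above 0.7, 57 were more than 10 numbers apart. With the identifier of the highest count in the table, correlations were taken over the 16 wasps with group means left in. They ran from -0.126 to 0.757, so none of the 103 was above 0.9.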

How the data were processed

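Total RNA of individual brains (1 µg) went into Illumina TruSeq libraries, per the labels' protocols. Per the submitters' processing notes the tools were Trimmomatic 0.32, Bowtie2 and eXpress. Which options and transcript set were used, whether strand was kept and how reads common to several transcripts were assigned is not stated there. The authors deposited whole-number counts for 127674 identifiers in 16 columns, and 0 columns belonged to no sample. Because eXpress estimates counts, these may be rounded estimates, which no source here states.

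Columns were joined to groups by the wasp number in the sample labels. Totals were 14949149 to 22832434 counts. Among 24 pairs of libraries within groups, chi-square per degree of freedom was 6.42 to 48.4, so none agreed within sampling noise. Tests used edgeR 4.0.16 in R 4.3.3 on the counts as deposited, with filterByExpr, TMM, robust quasi-likelihood fits with a mean per group, and Benjamini-Hochberg adjustment over all identifiers tested, at 0.05. The within-caste fit used all 16 wasps (55226 identifiers, biological coefficient of variation 21.4%), and each reading in unused wasps used its own 8. The standard error is the size of the log2 difference divided by the square root of F. Scripts were tested on simulated data. P-values weigh a group difference against the spread between these wasps within groups, which is estimated with information shared across identifiers.

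The identifiers and lists were chosen with earlier results of these data known. The 10 highest ranks, the last rank, those with the most counts and the widest and narrowest gap, and those with the lowest p in each direction within each caste were to be named. Alternatives were DESeq2 1.42.0 size factors and test, limma 3.58.1 voom, no filter on low counts, a higher count minimum, column totals, foundresses trained to faces only, and leaving out each wasp. The count under all 3 scalings and the count of groups without overlap by scaling were added after seeing the data.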

Additional observations from a re-analysis of the deposited data

Results flagged for a closer look

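In 84 groups of 4 values, the highest or lowest wasp was compared with the rest of its group, and 5 lay far from the others; chance marks about 1 in 20 such groups. Among workers from conspecific nests, MW40 had 82298 identifiers with a count, against 88142 to 88836 in the other 3. Its library was also the smallest, with 14949149 counts against 17482149 to 19074744, and the part of library size was not tested. In the same group, the identifier ranked 1 had 1.82 CPM in MW21, against 1.07 to 1.15 CPM in the others. Among workers from allospecific nests, MW41 stood apart at rank 70, with 2.78 CPM against 3.70 to 3.88 CPM, and at rank 85, with 215 CPM against 446 to 488 CPM. Among foundresses trained to patterns, M4 had 668 CPM at rank 85, against 513 to 538 CPM in the other 3.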

How the results depend on the processing

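The rule was met by 142 identifiers with TMM factors and 173 with DESeq2 size factors (80 and 82 of the 103 among them), by 86 with at least 20 counts, by 575 with foundresses trained to faces only, and by 107 to 151 without single wasps. With column totals, the median log2 difference became 0.063 between faces and patterns and 0.040 between allospecific and conspecific nests. Of the list chosen on patterns and conspecific wasps, 35 passed with no filter on low counts, 25 with the DESeq2 test and 0 to 7 without single wasps (0 without MW32 or MW41, 1 without MW47). Over all identifiers tested, 773, 323 and 3 to 77 passed higher in foundresses in these settings. Of the list chosen on faces and allospecific wasps, 49, 44 and 3 to 13 passed (3 without MW25, 4 without MW40 and 13 without MW21). Over all identifiers tested, 822, 315 and 7 to 47 passed higher in foundresses. In the within-caste tests no setting brought one of the 103 under an adjusted p of 0.05, the lowest over 21 alternatives being 0.145 for faces against patterns and 0.985 for allospecific against conspecific nests. Ratios of ranks 1 to 10, 79, 85 and 103 were recomputed under other scalings and without single wasps, giving 234 values. Without single wasps the ratio ran from 3.04 to 3.45 at rank 1 and from 1.18 to 1.22 at rank 103. With TMM factors and DESeq2 size factors it was 3.23 and 3.26 at rank 1, and 1.23 and 1.24 at rank 103. Leaving out 1 wasp cannot move the mean of its caste by as much as the SD. Nothing is therefore read from comparing these shifts with the spread between wasps. No paired analysis was possible because the wasp numbers only name wasps, and the groups compared share fewer than 2 of them. The lowest library count was under 20 in 17 of the 103. Single-wasp values of these are the least precise.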

Other observations

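Linking the 103 identifiers wherever a pair correlated above 0.7 within groups gave 8 sets holding 65 identifiers and left 38 in none, and the largest set held 35. Sets are chains of such pairs, 79 of 5253, so identifiers of 1 set need not all correlate above 0.7. Like sets of other identifiers are not given, so nothing particular to the 103 is read from them. Deviations from group means are given on the log2 scale used for the correlations, which shrinks differences at low CPM. The set of ranks 5, 9 and 10 was highest in M67, by 0.37, and lowest in M91, at -0.69. The set of ranks 3, 4, 12 and 30 was highest in M1, by 0.36, and lowest in M15, at -0.45. The set of ranks 16, 37 and 39 was lowest in MW21, at -0.60, and highest in MW42, by 0.33. These sets were formed from the same values and carry no test.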
